A study of Homo sapiens with 4 samples.

Results

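The transcripts of 8 genes that act with or below the kinase AKT1 were followed in an RNA immunoprecipitation sequencing (RIP-seq) experiment, namely RICTOR, RHEB, EIF4EBP1, EIF4EBP2, PPP2CA, PPP2R2A, YWHAZ and YWHAG. The experiment used MDA-MB-231, a mesenchymal breast cancer cell line without hormone receptors, in 4 libraries. Cells carried a plasmid for Flag-tagged AKT1 with the E17K mutation or for Flag-tagged wild-type (WT) AKT1, on top of their own AKT1. For each plasmid there was 1 library of RNA pulled down with a Flag antibody and 1 library of input RNA from the lysate, all depleted of rRNA. The question was which RNAs came down with the mutant protein. The authors deposited 1 peak list per plasmid, in which each peak has a position, a strand label, its immunoprecipitate reads and its control reads. The control was read as the input library, following the sample titles; the series description mentions IgG instead, and the lists themselves do not say. A peak belonged to a gene when it overlapped the gene's span in RefSeq GRCh38.p14, introns included, by at least 1 bp. By this rule all 8 genes had peaks in the list of the E17K plasmid, 33 of its 4838 peaks, and they are 8 of the 1936 genes with a peak there. The 8 genes were chosen with earlier results of these data known, so that all have peaks is not a result about the pathway.

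AKT1 is activated at the membrane below PI3K, where PDK1 phosphorylates it first and mTOR complex 2, which needs RICTOR, completes the activation. Active AKT1 inhibits the TSC complex, which frees the small GTPase RHEB to switch on mTOR complex 1, and that complex phosphorylates the translation repressors 4E-BP1 (EIF4EBP1) and 4E-BP2 (EIF4EBP2) so that they release the cap-binding factor eIF4E. The phosphatase PP2A takes part in removing the activating phosphates from AKT1. In PP2A, PPP2CA is a catalytic subunit and PPP2R2A the B55 subunit that brings in the substrate. Adaptor proteins of the 14-3-3 family, to which YWHAZ (zeta) and YWHAG (gamma) belong, hold phosphorylated AKT substrates. The measurements below are of the mRNAs of these genes, not of their proteins.

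Each group had 1 library, so no value has a replicate error, and the intervals given are exact 95% intervals that cover counting error only. PCR copies of one molecule cannot be recognised in the lists. Library totals are not in the lists, and the depth is known only inside peaks, with 484463 immunoprecipitate and 248412 input reads in the E17K list. The fold, the immunoprecipitate reads over the input reads, was not scaled and its level has no meaning alone. It was therefore set against the median fold of all peaks of the list, 2.18 with quartiles at 1.83 and 2.75. AKT1, which the plasmid carries, had 5 peaks with 73374 immunoprecipitate and 48883 input reads, a fold of 1.5, and the WT list had no peak at AKT1 or anywhere on its strand. Of 6 mesenchymal markers of the line (VIM, CD44, CAV1, EGFR, FN1 and AXL), all had peaks in the E17K list, with 27 to 2032 immunoprecipitate reads. Of 10 luminal or epithelial markers such as ESR1, PGR and ERBB2, none had a peak, but only 2 of them lie on a chromosome strand with 100 or more peaks.

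The 8 genes held 7016 immunoprecipitate reads, 1.45% of the list, and 3509 input reads, 1.41% of the list. YWHAZ alone accounted for 56.9% of these immunoprecipitate reads. Their levels differed widely, from 1082 immunoprecipitate reads per kb of peak at YWHAZ to 51.6 at EIF4EBP2, compared to a median of 113 over all genes with a peak. In descending order the levels per kb were YWHAZ, PPP2CA, YWHAG, EIF4EBP1, RHEB, PPP2R2A, RICTOR and EIF4EBP2. The counting intervals of neighbours in this order did not overlap, except those of RICTOR (59.4 to 81.0 reads per kb) and EIF4EBP2 (44.4 to 59.7 reads per kb). The order was the same in the input, where YWHAZ had 583 and EIF4EBP2 25.8 reads per kb.

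**Figure D1:**
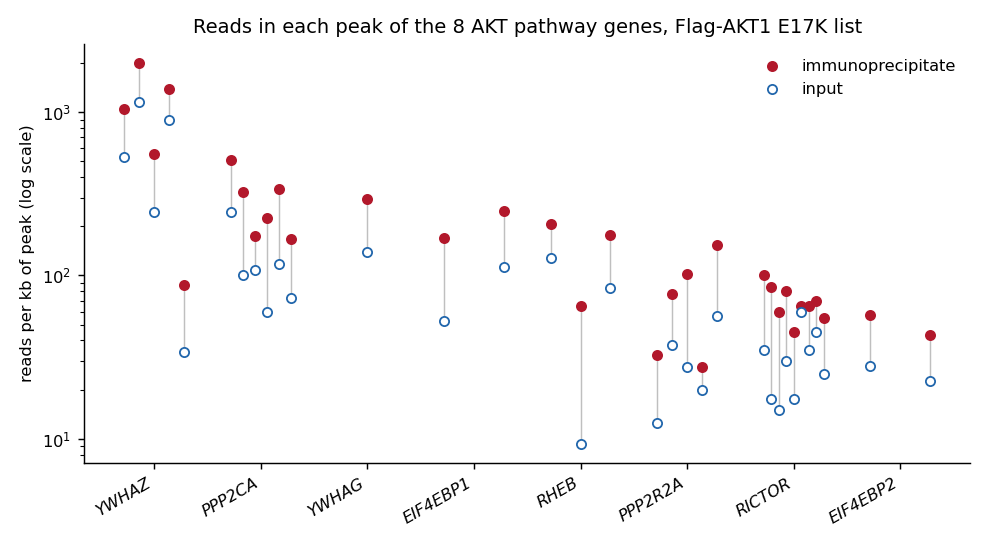
Reads per kb of each of the 33 peaks of the 8 genes in the Flag-AKT1 E17K list, on a log scale, with the immunoprecipitate as filled and the input as open circles joined by a line. Genes are ordered by their immunoprecipitate reads per kb and peaks by position. The immunoprecipitate lies above the input in every peak, and the peaks of YWHAZ reach 2000 reads per kb while no peak of EIF4EBP2 or RICTOR exceeds 100.

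RICTOR, the subunit that defines mTOR complex 2, was covered by 9 short peaks on chromosome 5, each 200 or 400 bp wide, with 167 immunoprecipitate and 69 input reads in all (fold 2.42, interval 1.82 to 3.25). No RICTOR peak stood out by level, with 45.0 to 100 immunoprecipitate reads per kb, and the fullest held 20.4% of the gene's reads. Their folds ran from 1.08, in the peak from 38952201 to 38952400 with 13 and 12 reads, to 4.86, in the peak from 38942001 to 38942400 with 34 and 7 reads. With so few reads the intervals of these peaks, 0.456 to 2.60 and 2.12 to 13.0, overlap. The peaks from 38941601 and from 38942001 also lie in the span of OSMR, a receptor gene on the other strand, but carry the label that is usual for RICTOR.

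RHEB, the GTPase that activates mTOR complex 1, had 3 peaks on chromosome 7 with 141 immunoprecipitate and 75 input reads (fold 1.88, interval 1.41 to 2.52). Most of them came from the peak from 151466856 to 151467285 near the transcript end, which had 89 and 55 reads and a fold of 1.62. The peak from 151477391 to 151477605 had 14 and 2 reads, and on so few the interval of its fold ran from 1.61 to 63.5. The third, from 151484701 to 151484915, had 38 and 18 reads and a fold of 2.11.

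The 4E-BP genes, both repressors of cap-dependent translation, differed in level more than in fold. EIF4EBP1 had 2 peaks on chromosome 8 with 316 immunoprecipitate and 134 input reads (fold 2.36, interval 1.92 to 2.91), or 226 immunoprecipitate reads per kb. The larger, from 38059801 to 38060800, runs over the annotated transcript end with 248 and 113 reads (fold 2.19), and the other, from 38057201 to 38057600, had 68 and 21 reads (fold 3.24). EIF4EBP2 had 2 wide peaks on chromosome 10 with 182 immunoprecipitate and 91 input reads (fold 2.0, interval 1.55 to 2.60), or 51.6 immunoprecipitate reads per kb. Its peak from 70421746 to 70423860 had 121 and 59 reads (fold 2.05) and its peak from 70425036 to 70426445 had 61 and 32 (fold 1.91). The fold intervals of the paralogs overlap over most of their length, while those of their levels per kb, 202 to 252 and 44.4 to 59.7, lie far apart.

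Among the PP2A genes, the catalytic subunit had the higher level and the regulatory subunit the higher fold. PPP2CA had 6 peaks on chromosome 5 with 993 immunoprecipitate and 443 input reads (fold 2.24, interval 2.0 to 2.51), or 355 immunoprecipitate reads per kb. Its largest peak, from 134196801 to 134198000, held 611 and 292 reads (fold 2.09). The peak from 134201801 to 134202200 had 135 and 47 reads (fold 2.87), and the others had folds from 1.63 to 3.75 on 45 to 70 immunoprecipitate reads. PPP2CA ranked 84 by immunoprecipitate reads and 171 by immunoprecipitate reads per kb among the 1936 genes. PPP2R2A had 5 peaks on chromosome 8 with 343 immunoprecipitate and 129 input reads (fold 2.66, interval 2.17 to 3.28), or 107 immunoprecipitate reads per kb. The peak from 26370001 to 26371600 near the transcript end held 72.0% of its immunoprecipitate reads, 247 against 90 in the input (fold 2.74). Of the 4 upstream peaks, that from 26362601 to 26363000 had 41 and 11 reads (fold 3.73) and that from 26363601 to 26364000 had 11 and 8 (fold 1.38). PPP2R2A had the highest fold of the 8 genes, at percentile 80.3 of all genes with a peak, but its interval overlaps those of RICTOR, EIF4EBP1, PPP2CA, YWHAG, EIF4EBP2 and RHEB.

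The 14-3-3 genes were among the well-covered genes of the list. YWHAZ ranked 5 of 1936 genes by immunoprecipitate reads and 37 by immunoprecipitate reads per kb, with 5 peaks on chromosome 8 holding 3991 immunoprecipitate and 2150 input reads (fold 1.86, interval 1.76 to 1.96). Its largest peak, from 100918631 to 100920885, had 2360 and 1203 reads (fold 1.96). The peak from 100923961 to 100924370 had 820 and 473 reads (fold 1.73), and its neighbour from 100924781 to 100925190 had 226 and 101 (fold 2.24). Unlike the other 7 genes, YWHAZ also had peaks near the transcript start. That from 100948561 to 100948970 had 567 and 366 reads, a fold of 1.55 (interval 1.36 to 1.77), and that from 100951841 to 100952045 had 18 and 7 reads (fold 2.57). YWHAG had 1 peak of 3010 bp on chromosome 7, from 76327366 to 76330375, with 883 immunoprecipitate and 418 input reads (fold 2.11, interval 1.88 to 2.38). With 293 immunoprecipitate reads per kb it ranked 231 of 1936. The RefSeq table lists 10 pseudogenes named after YWHAZ, 3 after RHEB, 2 after EIF4EBP1 and 3 after EIF4EBP2, and no E17K peak lay in their spans. How the authors assigned reads shared with such copies is not given in the sources used here, so the levels of these genes are uncertain to that extent.

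The median fold of the 8 genes was 2.18, and the median over all 1936 genes was 2.13. Of the 33 peaks, 18 (54.5%) had a fold above the median of the list. Relative to that median, the genes stood at 1.22 for PPP2R2A (interval 0.993 to 1.5), 1.11 for RICTOR (0.833 to 1.49), 1.08 for EIF4EBP1 (0.881 to 1.33) and 1.03 for PPP2CA (0.918 to 1.15). Below the median were YWHAG at 0.968 (0.861 to 1.09), EIF4EBP2 at 0.917 (0.709 to 1.19), RHEB at 0.862 (0.647 to 1.16) and YWHAZ at 0.851 (0.807 to 0.897). The interval of YWHAZ alone excludes the median of the list. It also lies below the intervals of PPP2R2A and PPP2CA, while all neighbours in this order overlap.

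**Figure D2:**
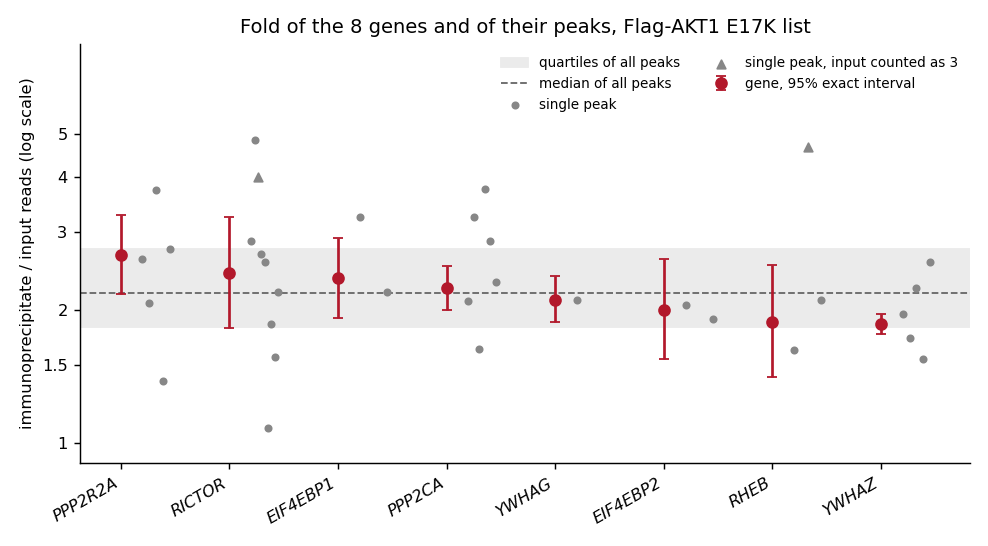
Immunoprecipitate over input reads of the 8 genes in the Flag-AKT1 E17K list on a log scale, with exact 95% intervals (red) beside the folds of their single peaks (grey, triangles where 3 or fewer input reads were counted as 3). The dashed line is the median of all 4838 peaks, 2.18, and the band their quartiles, 1.83 to 2.75; the folds run from 2.66 at PPP2R2A to 1.86 at YWHAZ, all inside the band, and only the interval of YWHAZ misses the line.

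The reads of each gene were set against those of all remaining peaks with Fisher's exact test, two-sided and adjusted by Benjamini-Hochberg over the 1936 genes, which compares 2 libraries and not conditions. The test called 62 genes, 3.20% of those tested, of which 58 (3.00%) were higher and 4 (0.207%) lower in the immunoprecipitate, and 0 of the 8. At an unadjusted p under 0.05 in the exact test there were 2 of the 8, PPP2CA (p = 0.0152) and PPP2R2A (p = 0.00253), and 14% of all genes. The adjusted p-value was 0.0647 for PPP2R2A, whose immunoprecipitate share was 72.7%, and ran from 0.193 for PPP2CA to 1 for EIF4EBP2 in the others. In the alternative settings the adjusted p-value lay between 0.0649 and 0.708 for PPP2R2A and between 0.125 and 0.916 for PPP2CA. In the exact test without the AKT1 peaks it was 0.221 for PPP2R2A and 0.585 for PPP2CA. Of the 33 peaks, 0 were called in the same test over all 4838 peaks, of which 0.269% were called, 0.0827% higher and 0.186% lower. At an unadjusted p under 0.05 there were 7 of the 33 (21.2%) and 8.78% of all peaks, and the lowest adjusted p-value was 0.115, for the YWHAZ peak from 100948561.

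For YWHAZ the outcome depended on the reference. The AKT1 reads have a low fold, and with them the reads of the whole list gave a ratio of 1.95, compared to 2.06 without them. Against the remaining peaks YWHAZ had an adjusted p-value of 0.392. Without the AKT1 peaks the exact test called it lower (adjusted p = 0.0112), as were 0.620% of 1935 genes. In an exact binomial test against the median fold it was called lower as well (adjusted p = 8.57e-07), as were 1.91% of 1936 genes. Fisher's exact test did not call it against the other peaks of its own strand (ratio 0.922, adjusted p = 0.125), without its fullest peak (ratio 0.883, adjusted p = 0.0689) or with the stricter peak threshold (ratio 0.952, adjusted p = 0.397). In the settings without the AKT1 peaks and with the binomial test, the YWHAZ peak from 100948561 was called lower, with adjusted p-values of 0.0197 and 2.09e-04, beside 0.145% and 0.620% of all peaks, and the binomial test also called the YWHAZ peak from 100923961 (adjusted p = 0.0208).

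The fold of a gene went with its number of reads. Over all genes, the median fold was 2.77 for the 314 genes with up to 50 reads of both libraries, 2.21 above that and up to 150, 2.09 up to 500, 2.06 up to 1500 and 2.0 for the 81 genes with more. No peak of the list has fewer than 11 immunoprecipitate reads, and the part of this in the relation was not tested. The 8 genes were also set beside the genes whose reads were within a factor of 2 of their own, a comparison chosen after the values were seen. The median fold of 14 such genes was 1.91 at YWHAZ, which stood at 0.974 of it, above 3 of the 14. PPP2R2A stood at 1.29 of the median of its 612 like genes, above 93.5% of them. PPP2CA was above 82.6% and EIF4EBP1 above 82.0% of their like genes, RICTOR above 77.8%, YWHAG above 64.2%, EIF4EBP2 above 38.8% and RHEB above 25.6%.

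**Figure D3:**
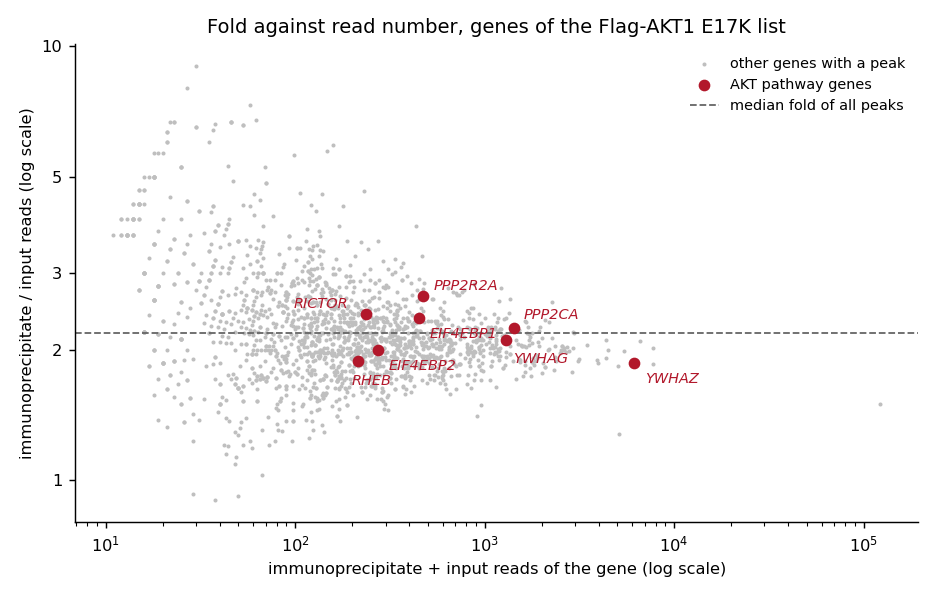
Immunoprecipitate over input reads of each gene with a peak in the Flag-AKT1 E17K list against the sum of its reads in both libraries, both axes on log scales, input counts of 3 or fewer counted as 3. The 8 genes (red, named) lie within the cloud of the other genes (grey), which narrows towards a fold near 2.0 at over 1500 reads, where YWHAZ lies; the point at the far right is AKT1.

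The reads lay towards the transcript end. The strand of RICTOR, RHEB, EIF4EBP2, PPP2CA and YWHAG was taken from a promoter table. That of the other 3 was taken from the peaks, since 99.6% of 3010 E17K peaks in a single gene of known strand carried the label opposite to the gene. Of the 33 peaks, 31 lay nearer to the transcript end than to the start, 11 of them with their middle within 5 kb of the end. On a scale from 0 at the start of the span to 1 at its end, the mean position of the immunoprecipitate reads had a median of 0.88 over the 8 genes and 0.80 over 1156 protein-coding genes. It was 0.98 for EIF4EBP1, 0.94 for PPP2R2A and YWHAG, 0.89 for RICTOR, 0.87 for RHEB, 0.85 for PPP2CA, 0.80 for EIF4EBP2 and 0.76 for YWHAZ, where 85.3% of the reads lay past the middle. In all 8 genes this mean lay past the middle of the span, as in 86.2% of the 1156 genes. Exons and untranslated regions were not available for this build, so whether a peak lies in an exon was not determined.

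**Figure D4:**
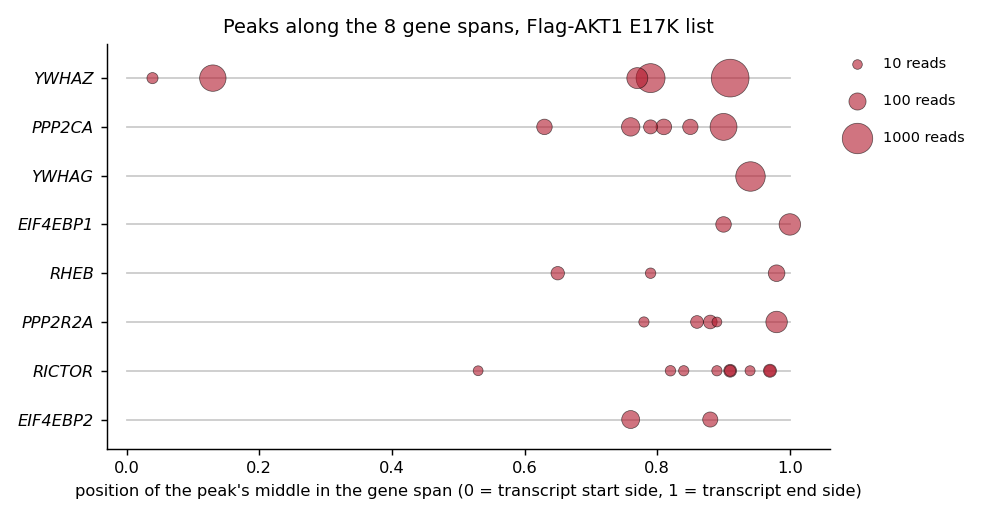
Position of the middle of each peak along the gene span in transcript direction, from 0 (start side) to 1 (end side), for the 8 genes; the area of a point grows with the square root of its immunoprecipitate reads. All peaks but the 2 at the left of YWHAZ lie past the middle of the span, and RHEB, EIF4EBP1, PPP2CA, PPP2R2A, YWHAZ and YWHAG have their fullest peak nearest to the end.

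The peaks of the 8 genes lie on 5 chromosome strands, which hold 2858 peaks, 59.1% of the E17K list. RICTOR and PPP2CA lie on chromosome 5 under the label plus, with 768 peaks, RHEB and YWHAG on chromosome 7 under the label plus, with 658, and YWHAZ on chromosome 8 under the label plus, with 553. EIF4EBP1 and PPP2R2A lie on chromosome 8 under the label minus, with 359 peaks, and EIF4EBP2 on chromosome 10 under the label minus, with 520. Of the protein-coding genes that the promoter table places on these strands, 39.5% had a peak on chromosome 5, 39.4% on chromosome 7 and 37.5% on chromosome 10. That table gives no strand for genes of chromosome 8, so the strands of YWHAZ, EIF4EBP1 and PPP2R2A have no such share. Set against the median fold of their own strand in place of the list, the ratios ran from 0.812 for YWHAZ to 1.13 for PPP2R2A. The Flag-AKT1 WT list has 808 peaks and none at the 8 genes. On their 5 strands it has 1 peak in all, on chromosome 10, so for these transcripts it gives no measurement, and a difference between Flag-AKT1 E17K and Flag-AKT1 WT cannot be calculated.

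**Figure D5:**
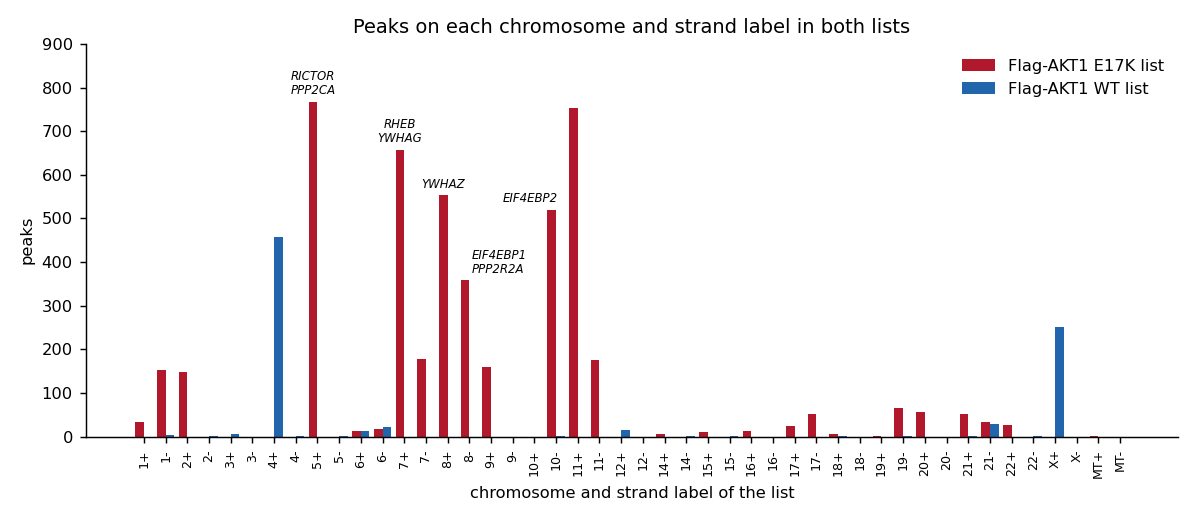
Number of peaks on each chromosome and strand label in the Flag-AKT1 E17K list (red) and the Flag-AKT1 WT list (blue), with the 8 genes written above the bars of their strands. The strands of the 8 genes hold 359 to 768 E17K peaks each and at most 1 WT peak, and the WT peaks lie mainly under the label plus of chromosomes 4 and X.

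Of 79 further genes of the pathway, 13 had peaks in the E17K list, 36 peaks in all, and 5 of the 13 had a fold above the median of the list. Their median fold was 1.98, beside 2.13 over all genes. The test over all genes, which called 3.20% of them, called 1 of the 13, the plasmid-borne AKT1, lower. At an unadjusted p under 0.05 there were 4, AKT1 among them, beside 14% of all genes. Of the 66 genes without a peak, 29 lie on a strand without any peak, 17 on a strand with 1 to 99 peaks and 10 on a strand with 100 or more, while the table lists no strand for the other 10. Among the 10 on well-covered strands are PPP2R2B and PPP2R2D, B55 paralogs of PPP2R2A, on the strands of RICTOR and EIF4EBP2. A further paralog, PPP2R2C, lies on a strand of chromosome 4 without any E17K peak. Where the strand has few or no peaks, the absence of a peak does not measure the transcript.

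Of the other PP2A subunits, PPP2CB, the paralog of PPP2CA, had 173 immunoprecipitate and 77 input reads (fold 2.25) and 121 immunoprecipitate reads per kb, compared to 355 at PPP2CA. The scaffold subunits had 291 and 147 reads at PPP2R1A (fold 1.98) and 27 and 11 at PPP2R1B (fold 2.45). BTBD10, which restrains the action of PP2A on AKT, had 176 and 68 reads (fold 2.59, interval 1.95 to 3.48, exact test, adjusted p = 0.355). PPP2CA, PPP2R2A, PPP2CB, PPP2R1B and BTBD10 stood above the median of the list and PPP2R1A below it, but the interval of each of these 6 includes that median. The test called 0 of the 6, beside 3.20% of all genes.

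Of the other 14-3-3 genes, YWHAQ (theta) had 81 and 43 reads (fold 1.88) and SFN (sigma) 143 and 73 (fold 1.96). With 202 and 179 immunoprecipitate reads per kb both were below YWHAZ and YWHAG. The folds of all 4 lay below the median of the list, as does the median over all genes, 2.13. Of these 4 genes, only YWHAZ has an interval that excludes the median of the list. The remaining 14-3-3 genes had no peak and lie on strands with at most 25 peaks. Among the remaining genes, INPPL1, an inositol phosphatase, had 32 and 26 reads (fold 1.23, interval 0.711 to 2.15, exact test, adjusted p = 0.457). Its interval lies below the median of the list, 2.18. MAPKAP1, a subunit of mTOR complex 2 like RICTOR, had 23 and 16 reads (fold 1.44, interval 0.727 to 2.91). RPS6, the ribosomal protein phosphorylated downstream of mTOR complex 1, had 1173 and 540 reads (fold 2.17, exact test, adjusted p = 0.314) and 817 immunoprecipitate reads per kb. Of the AKT substrates on the list, BRAF and BAD had peaks and the others, such as GSK3A, GSK3B and FOXO1, had none. GSK3B and FOXO1 lie on strands without any E17K peak and GSK3A on a strand with 1. None of the other substrates without a peak lies on a strand known to hold more than 18. The absence of a peak therefore does not measure these transcripts. The fold was 3.0 for BRAF with 51 and 17 reads (interval 1.70 to 5.54, exact test, adjusted p = 0.505). For BAD it was 2.98 with 119 and 40 reads (interval 2.06 to 4.37, exact test, adjusted p = 0.211). Both intervals include the median of the list.

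In the Flag-AKT1 WT list, 2 of the 79 genes had peaks, both on strands where the E17K list has none. EIF4E, the cap-binding factor that the 4E-BPs hold, had 3 peaks on chromosome 4 with 162 immunoprecipitate and 175 input reads (fold 0.926, interval 0.743 to 1.15). RPS6KA3, a kinase related to AKT in its catalytic domain, had 2 peaks on chromosome X with 36 and 31 reads (fold 1.16, interval 0.698 to 1.94). The median fold of that list was 0.976, and neither gene was called (Fisher's exact test with Benjamini-Hochberg adjustment, adjusted p = 0.883 and 0.854), as were 7.86% of the 318 genes with a WT peak.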

How the data were processed

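Per the labels, the RNA was depleted of rRNA, and the submitters' processing notes name Bowtie2 2.2.8 and the build hg18. The positions were matched to another build, since 98.9% of the E17K peaks lay in gene spans of RefSeq GRCh38.p14, compared to 61.7% after a shift by 1000000 bp. The peak caller and its filters are not given in the sources used here. The authors deposited counts of reads per peak as whole numbers without normalization, and adjusted p-values, which served only for an alternative threshold of 0.001. The lists' reads per kb and log odds were not used.

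Counts were summed over the peaks of a gene. Input counts of 3 or fewer were set to 3 in folds. Fisher's exact tests (scipy 1.17.1), Benjamini-Hochberg adjustment at a threshold of 0.05 and overlaps (pandas 2.3.3, numpy 2.4.6, Python 3.11.15) were checked on simulated data, and plots were drawn with matplotlib 3.10.9. Samples were grouped by title. The genes named are the 8 genes, every gene of the pathway list with a peak except 1 that is not reported here, and markers; PPP2R2B, PPP2R2C, PPP2R2D, GSK3A, GSK3B, FOXO1 and OSMR were named after their values were seen. Members and lists were chosen with earlier results of these data known. No genome sequence was used here, so no sequences of peaks are printed.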

Additional observations from a re-analysis of the deposited data

How the results depend on the processing

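No paired analysis was possible because each group has 1 library. Of 84 values under alternative settings, 69 kept their direction and side of the threshold, stayed within their counting interval or, for counts of peaks, genes and calls, were equal or close to the main count. The number of genes called among the 8 was 0 in the main test, 1 (YWHAZ) in the binomial test against the median fold and 1 (YWHAZ) without the AKT1 peaks; of their 33 peaks, 0 were called in the main test, 1 without the AKT1 peaks and 2 in the binomial test, both peak settings chosen after seeing the data. YWHAZ stood at 0.951 of the remaining peaks, at 0.851 of the median fold and at 0.90 without the AKT1 peaks; its ratio of 0.851 became 0.952 against the total reads of the list and 0.974 against genes with a like number of reads, the last also chosen after seeing the data. The side on which a gene lay changed, without a call, for EIF4EBP2, which was at 1.03 of the remaining peaks and at 0.917 in the binomial test, 0.971 without the AKT1 peaks, 0.930 on its own chromosome strand and 0.977 without its fullest peak. It changed for YWHAG, at 1.08 in the main test, 0.968 in the binomial test and 0.966 on its own strand, and for RHEB, at 0.964, to 1.33 without its fullest peak. YWHAG has 1 peak and could not be tested without it. The cause was not tested. Over all genes, the calls were 58 higher and 4 lower in the main test, 13 and 37 in the binomial test, 28 and 12 without the AKT1 peaks, 16 and 7 within strands, 28 and 4 of 1014 genes without the fullest peaks, and 57 and 4 with the stricter peak threshold. Depth limits RHEB, RICTOR and EIF4EBP2 most, with 141, 167 and 182 immunoprecipitate reads.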
